A study of Rattus norvegicus with 24 samples.

Results

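Cyclophosphamide is an alkylating prodrug that liver cytochrome P450 enzymes convert into a mustard that crosslinks DNA, and dividing cells of the bone marrow and lymphoid organs are its best known targets. The comparison described here is that of liver RNA from rats given the drug against liver RNA from rats given vehicle, all of them with wood in the cage. Its members are the 6 liver arrays, of 24 arrays in the series, whose titles name the liver and access to a wood stick: 3 from vehicle rats (animals 3001, 3003 and 3005) and 3 from drug rats (animals 4001, 4003 and 4005).

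All rats were wild-type male Sprague-Dawley rats of 46 to 49 days. The drug was given by mouth at 40 mg/kg/day for 5 days, and the vehicle rats were dosed for the same 5 days. Each liver was frozen and extracted on its own, so an array stands for 1 animal, and the spleens of the same 6 rats were measured too. The other 6 liver arrays came from rats under the same dosing without wood, and they enter here through the shared estimate of the spread and through a test of whether the drug effect differed with housing.

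The liver holds, beside hepatocytes, a dense population of resident macrophages (Kupffer cells) in its sinusoids, sinusoidal endothelium, stellate cells, bile duct cells, and the leukocytes and red cells of the blood passing through. Major histocompatibility complex class II molecules present peptides to CD4+ T cells and are made mainly by dendritic cells, B cells and macrophages, under control of the coactivator CIITA. Haemoglobin and its haem are made by red cell precursors and young red cells, and in haem synthesis Alas2 encodes the erythroid form of the first enzyme. The sources used here do not give whether the livers were flushed of blood, and in whole organs fewer cells of a type and less RNA per cell cannot be told apart.

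The 6 arrays resembled each other closely. Of 30980 probe sets, 4973 to 5088 per array had a blank cell in place of a value, and the median intensity per array was 90.6 to 92.7. The correlation of log2 values between arrays was 0.901 to 0.931 within a group and 0.909 to 0.924 between groups, so the drug did not set the arrays apart as a whole. The labelled tissue was borne out by its markers: Alb, encoding albumin, read 13.22 to 13.50 on the log2 intensity scale in the 6 livers and 4.88 to 8.50 in the 6 spleens, and the 7 hepatocyte markers summed to a linear intensity of 66680 to 71120 with vehicle and 62470 to 69770 with drug. The brightest probe set of an array read 13.74 to 13.96, which bounds the scale at its top.

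Few genes passed the test. Of 12683 genes tested with limma, 6 (0.0473%) differed between drug and vehicle at an adjusted p under 0.05 (Benjamini-Hochberg, two-sided), and all 6 were lower with the drug: Hbb, Alas2, Cd74, RT1-Da, Cfd and Irf8. None was higher. At an unadjusted p under 0.05 there were 1030 genes (8.12%), 454 higher (3.58%) and 576 lower (4.54%). In 11620 genes with a value on all 6 arrays, the 3 drug values lay below the 3 vehicle values in 1120 (9.64%) and above them in 873 (7.51%). The count of 6 depends on the 12-array estimate of the spread: with only the 6 arrays of rats with wood the same test called 1 gene, Hbb, which has a single drug value, so that its SE there comes from the vehicle arrays and other genes. Where at least 2 values per group were required, the other 5 genes were called and Hbb was not tested. Without the liver array of rat 2003, which had more blanks (6060) than the others and belongs to the group without wood, 4 genes were called, and Hbb could not be tested. Every change below is a difference of mean log2 intensity, drug minus vehicle, with the standard error (SE) of the moderated fit, and over all genes tested the median difference was -0.02.

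**Figure D1:**
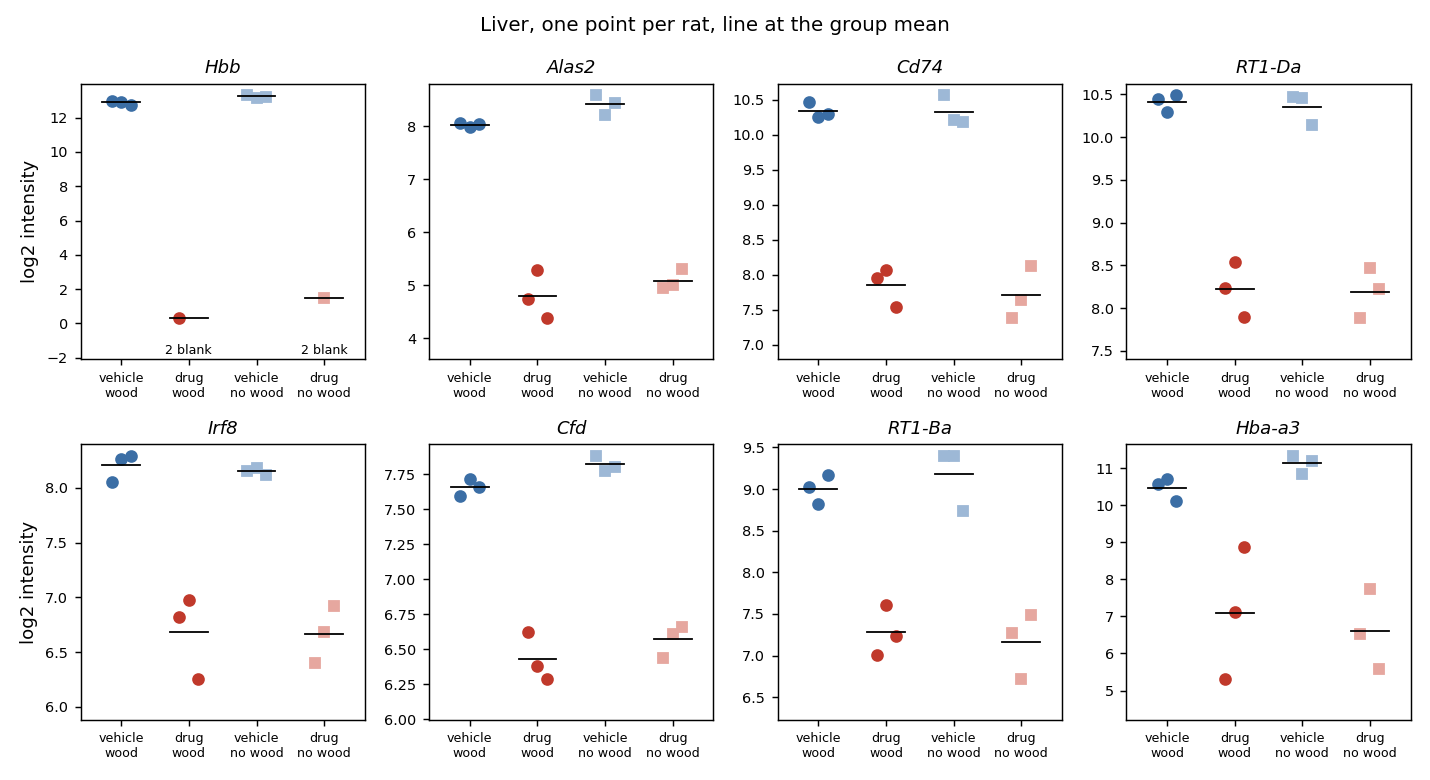
Log2 intensity in liver of the 6 genes that fell and of RT1-Ba and Hba-a3, for vehicle and drug rats with wood (circles) and without wood (squares), 3 rats per group; lines mark group means and blank cells are counted at the foot. In each gene no drug value with wood reaches a vehicle value with wood, and in Hbb 2 of the 3 drug arrays with wood are blank.

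The genes of haemoglobin and haem synthesis showed the largest falls. Hbb, encoding the beta chain of haemoglobin, read 13.00, 12.94 and 12.74 in the 3 vehicle livers, among the brightest values of the array. In the drug livers it read 0.30 in 1 rat and was blank in the other 2. Its fitted difference of -12.60 (SE 0.18, limma adjusted p = 2.54e-05) therefore rests on 1 drug value near the floor of the scale, and its size cannot be read as a measured fold. With an offset of 16 added to every intensity and blanks set to 0 the difference was -8.86. The probe set carries the suffix of those that can also bind related transcripts, so other beta-like globins may share its signal.

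Alas2 read 8.06, 7.99 and 8.04 with vehicle and 4.74, 5.28 and 4.37 with drug, so the groups lay far apart. It fell by 3.23 (SE 0.21, 95% interval -3.71 to -2.75, limma adjusted p = 0.00033), a 9.38-fold lower level. Hba-a3, encoding an alpha chain of haemoglobin, read 10.57, 10.71 and 10.12 with vehicle and 5.31, 7.13 and 8.87 with drug. The groups did not overlap, but the 3 drug rats spread over a wide range, and the difference of -3.36 (SE 0.80) had a limma adjusted p of 0.254.

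To show which control sequences these genes carry, stretches of their promoters are printed 5′ to 3′ in the direction of transcription, from RefSeq on build GRCr8; 11 of 13 genes looked up were in that table. In Hbb capitals mark CCACACCC, the CACCC box bound by erythroid Krüppel-like factor, and in Alas2 they mark AGATAA, the core bound by GATA factors. Both were searched on both strands of the 300 bases around each gene's start, where the first occurs in 3.22% and the second in 11.6% of 33469 promoters, and a match is a description only.
Hbb, chr1:167663797-167663834, minus strand: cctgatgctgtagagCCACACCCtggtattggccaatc
Alas2, chrX:22895299-22895334, plus strand: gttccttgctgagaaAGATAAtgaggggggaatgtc

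The counts of the erythroid list include Hbb, Alas2 and Hba-a3. Of 18 list members tested, 2 fell (Hbb and Alas2), none rose, 14 were negative, and the median difference was -0.57. In 15 members with all 6 values, 4 (26.7%, against 9.64% over all genes) had drug values wholly below vehicle values. Tfrc, the transferrin receptor, read 10.82, 11.16 and 10.14 against 10.35, 9.70 and 9.64, and its difference of -0.80 had a limma adjusted p of 0.522. Hemgn, a nuclear protein of red cell precursors, read 5.81, 4.86 and 3.59 with vehicle against 3.75, 3.47 and 3.92 with drug, and the groups overlapped. Gata1, the master factor of the lineage, was dim and scattered, from -2.02 to 4.94 with vehicle and from 4.69 to 5.78 with drug. Summed over the red cell precursor markers, the linear intensity was 8393 to 10120 with vehicle and 131.7 to 614.1 with drug. Most of the vehicle sum came from Hbb and Hba-a3, Hbb added almost nothing to the drug sums, and Klf1 was blank on all 6 arrays.

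The class II antigen presentation genes had negative differences throughout. The list had 8 members on the array and all were tested: 2 fell, none rose, all 8 had a negative difference, and the median was -1.23 against -0.02 over all genes. In 7 of the 8 (87.5%, against 9.64% over all genes) every drug value lay below every vehicle value. Cd74, the invariant chain that escorts class II molecules to the endosome, read 10.47, 10.26 and 10.30 with vehicle and 7.96, 8.07 and 7.53 with drug. It fell by 2.49 (SE 0.21, 95% interval -2.97 to -2.01, limma adjusted p = 0.0024), a 5.63-fold lower level. RT1-Da, the alpha chain of the rat counterpart of HLA-DR, read 10.45, 10.29 and 10.50 with vehicle and 8.23, 8.54 and 7.90 with drug. It fell by 2.19 (SE 0.20, 95% interval -2.63 to -1.75, limma adjusted p = 0.00256), a 4.56-fold lower level.

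The other class II chains lay on the same side without passing the test. RT1-Ba, the alpha chain of the counterpart of HLA-DQ, read 9.03, 8.82 and 9.16 against 7.01, 7.60 and 7.24, a difference of -1.72 (SE 0.25, limma adjusted p = 0.105). A dimmer probe set of RT1-Ba gave -0.75. RT1-Bb, its beta chain, read 7.80, 8.67 and 7.91 against 5.13, 6.66 and 5.95, a difference of -2.21 (limma adjusted p = 0.422). RT1-Db1, the beta chain paired with RT1-Da, read 9.24, 9.16 and 9.16 against 8.19, 8.78 and 8.65. These 3 genes had no overlap between the groups, with the drug rats more scattered than the vehicle rats in each. RT1-DMb, a chain of the peptide editor DM, read 7.96, 8.32 and 8.50 against 7.66, 7.60 and 7.29, also without overlap. RT1-DMa, the other DM chain, read 7.17, 7.35 and 7.38 against 6.64, 7.40 and 5.80, the single overlap of the list. Ciita, the coactivator itself, read 6.33, 6.39 and 6.84 against 6.21, 5.90 and 6.21, a difference of -0.41 (limma adjusted p = 0.718), the smallest of the 8.

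Class II promoters share conserved boxes with spacing that is fixed within narrow limits, and the printed stretches show which of them the measured chains hold. Capitals mark ACNGATG, the 3′ part of the X box, and the Y box CTGATTGG, a reversed CCAAT element that contains ATTGG; both strands were searched, and they occur in 10.2% and 3.5% of the 33469 promoters. In Cd74 neither was found, and capitals mark its CCAAT, which on either strand occurs in 37.5%.
RT1-Da, chr20:4515321-4515385, plus strand: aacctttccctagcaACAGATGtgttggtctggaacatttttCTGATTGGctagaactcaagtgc
RT1-Db1, chr20:4560223-4560286, minus strand: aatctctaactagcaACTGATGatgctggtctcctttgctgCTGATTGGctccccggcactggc
RT1-Bb, chr20:4604160-4604223, minus strand: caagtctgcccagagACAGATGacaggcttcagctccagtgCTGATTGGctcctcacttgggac
RT1-Ba, chr20:4576996-4577033, plus strand: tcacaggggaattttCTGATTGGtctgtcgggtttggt
Cd74, chr18:56526971-56527070, plus strand: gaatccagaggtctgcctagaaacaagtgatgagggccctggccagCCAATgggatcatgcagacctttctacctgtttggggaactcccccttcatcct
The Y box starts 52 bases before the gene start in RT1-Da, 83 in RT1-Db1, 64 in RT1-Bb and 46 in RT1-Ba, and the X box letters were not found in the window of RT1-Ba. The 8 letters of the Y box also occur in the promoter of Irf8, 132 bases before its start, and the X box letters occur in that of RT1-DMa, 94 bases before its start and without the Y box letters. RT1-Da and RT1-Db1 carry the same pair of boxes, and their differences were -2.19 and -0.65.

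Genes of class I antigen processing, which present peptides to CD8+ T cells, had a median near 0. Of 12 members tested, none passed, 7 were negative, and that median was -0.04. Tap1, a subunit of the peptide transporter, read 7.63, 7.24 and 7.80 against 7.14, 7.26 and 6.89, with overlap, and Psmb9, an immunoproteasome subunit, read 8.49, 8.53 and 9.27 against 8.34, 8.95 and 8.04, also with overlap.

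Irf8, a transcription factor needed for dendritic cells and monocytes to develop, was the only member of the dendritic cell list that fell. It read 8.05, 8.26 and 8.29 with vehicle and 6.82, 6.98 and 6.25 with drug, without overlap. It fell by 1.52 (SE 0.19, 95% interval -1.95 to -1.08, limma adjusted p = 0.0398), a 2.87-fold lower level. This call sits near the threshold: leaving out rat 3001, 3003, 3005 or 4001 gave limma adjusted p values of 0.109, 0.144, 0.144 and 0.0876, leaving out rat 4003 or 4005 gave 0.0348 and 0.0476, and leaving out the liver array of rat 2003, which belongs to the group without wood, gave 0.0755. Of 5 list members tested 4 were negative, and the defining dendritic markers were dim: Clec9a and Itgax were blank on all 3 drug arrays, Clec9a on 2 vehicle arrays and Itgax on 1. Cd83, a marker of mature dendritic cells, read 7.57, 7.52 and 6.74 against 5.13, 6.94 and 5.98, with overlap.

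The Kupffer cell and macrophage genes had mostly negative differences, 16 of 18, with no single member past the threshold. Of 18 members tested, 0 were called by limma, and the median was -0.75. A negative difference with an unadjusted p under 0.05 was found in 9, against 4.54% over all genes. In 17 members with all 6 values, 10 (58.8%, against 9.64% over all genes) had no overlap and lay lower with drug. Csf1r, the receptor for macrophage colony-stimulating factor, read 8.83, 9.18 and 8.93 with vehicle and 8.18, 8.25 and 7.63 with drug, a difference of -0.96 (SE 0.17, limma adjusted p = 0.154). C1qc, a chain of complement C1q made by tissue macrophages, read 9.75, 10.10 and 9.92 against 9.04, 9.34 and 8.83, a difference of -0.85 (SE 0.15, limma adjusted p = 0.148). Clec4f, a lectin that marks Kupffer cells in rodents, read 11.14, 11.13 and 11.09 against 10.26, 10.57 and 9.93. The 3 vehicle values of Clec4f lay close together, and the drug values spread more widely below them.

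Among the drug rats, rat 4003 had the highest and rat 4005 the lowest value in C1qa (9.57, 9.66 and 8.86), C1qb (8.62, 9.16 and 7.32), Clec4f and Cd5l (10.20, 10.66 and 9.95), an apoptosis inhibitor secreted by macrophages. The summed linear intensity of the 7 Kupffer markers was 7766 to 8357 with vehicle and 3313 to 5596 with drug, so the groups did not overlap. Some macrophage genes had small or positive differences: Mrc1, the mannose receptor, shared with sinusoidal endothelium, had a difference of -0.06, Cd163, the haemoglobin scavenger receptor, one of -0.40 with overlap, and Cd14, the lipopolysaccharide coreceptor, one of 0.25 without overlap.

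**Figure D2:**
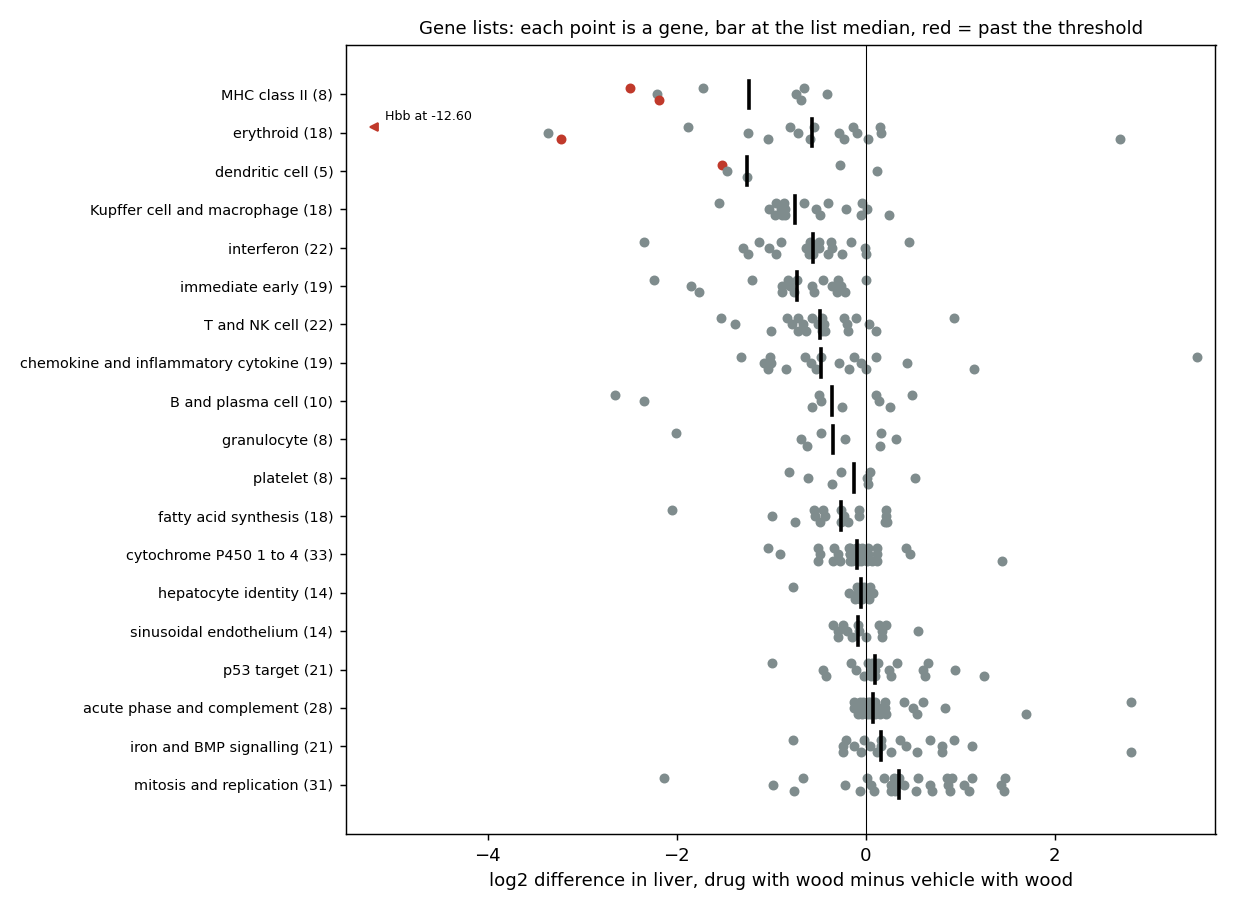
Log2 difference in liver, drug with wood minus vehicle with wood, of each tested gene in 19 lists; the bar is the list median, red points passed the limma threshold, and Hbb is drawn at the left edge with its value. The class II list lies wholly below 0, and the hepatocyte identity list lies close to 0 with Foxa2 as its lowest point.

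Lymphoid and granulocyte genes gave no calls. Differences were negative in 6 of 10 B and plasma cell genes and 5 of 8 granulocyte genes, against 6653 of 12683 over all genes. Among B and plasma cell genes, 0 of 10 tested were called and the median was -0.36. Jchain, which joins polymeric antibodies, read 6.45, 6.45 and 6.95 with vehicle against 4.71, 2.79 and 4.40 with drug, a difference of -2.65 (limma adjusted p = 0.214), and Ighvl1, an immunoglobulin heavy chain gene, read 6.40, 6.74 and 6.58 against 5.11, 4.80 and 2.79, a difference of -2.34 (limma adjusted p = 0.221). Both separated the groups, but the B cell marker Ms4a1 (CD20) did not, at 5.66, 6.43 and 5.97 against 5.67, 5.34 and 6.30. The plasma cell marker Prdm1 lay on the other side without overlap, at 6.72, 6.25 and 6.73 against 7.05, 7.19 and 6.92. Of 4 plasma cell markers tested, 2 had a negative and 2 a positive difference. Among T and NK cell genes, 0 of 22 were called, 19 were negative, and the median was -0.49. Il2rb, a chain of the interleukin-2 receptor, read 7.13, 7.07 and 7.24 against 6.29, 6.34 and 6.66, and Ccl5, a chemokine of T and NK cells, read 7.97, 8.31 and 8.33 against 7.27, 7.77 and 7.41. Cd3e, part of the T cell receptor complex, overlapped at 7.42, 7.17 and 6.83 against 5.31, 6.41 and 7.34. The NK cell marker Nkg7 lay higher with drug without overlap, at 4.22, 5.74 and 5.86 against 6.56, 6.20 and 5.88. In 19 T and NK cell genes with all 6 values, 6 (31.6%, against 9.64% over all genes) lay lower without overlap. Higher without overlap lay 1 (5.26%, against 7.51% over all genes).

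Slfn4, a schlafen gene of myeloid cells, stood out from the granulocyte list, at 8.83, 9.57 and 9.40 with vehicle and 7.71, 7.86 and 6.21 with drug (difference -2.01, limma adjusted p = 0.215). The other 7 granulocyte members tested overlapped between groups or had blanks, and the secretory granule genes that define neutrophils were dim, at 3.81 to 5.23 for RatNP-3b. Platelet genes were split, 4 of 8 negative, with a median of -0.12. Itga2b, the platelet fibrinogen receptor chain, read 6.80, 6.70 and 6.90 against 7.52, 7.12 and 7.31, while Pf4, platelet factor 4, read 5.67, 5.56 and 6.96 against 4.99, 5.45 and 5.32.

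**Figure D3:**
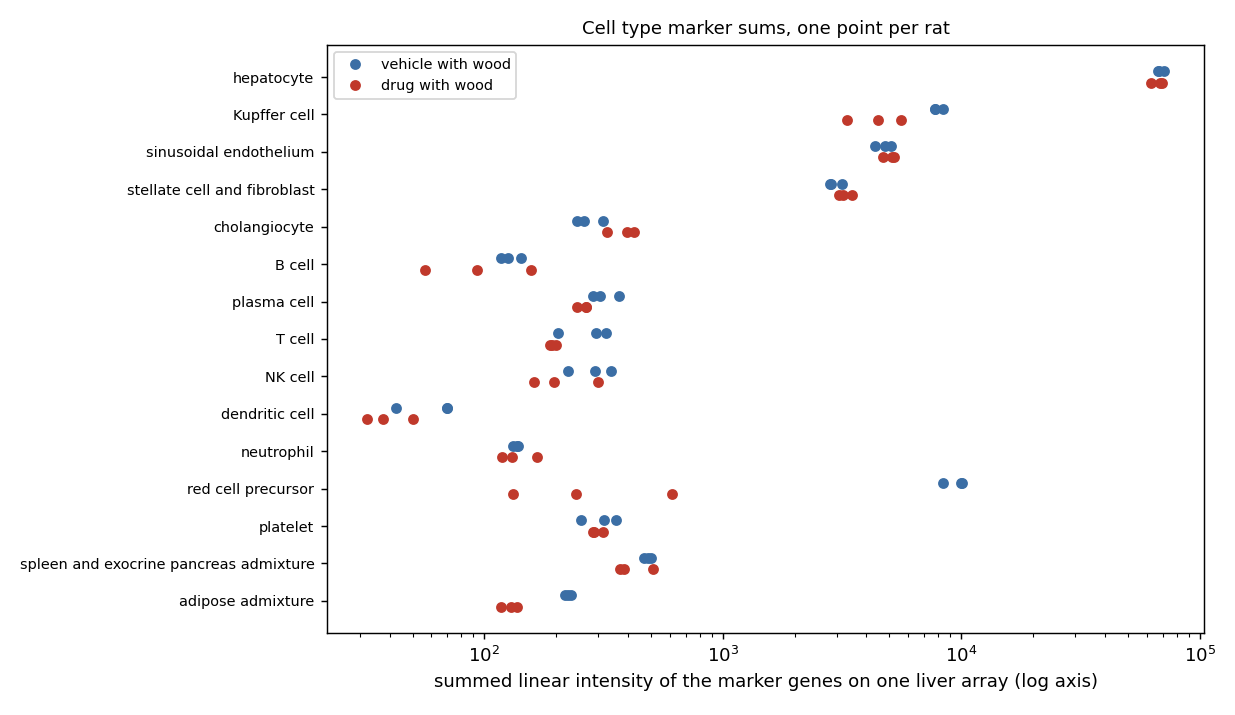
Summed linear intensity of the marker genes of each cell type on each of the 6 liver arrays with wood, on a log axis. The red cell precursor sum is 8393 to 10120 with vehicle and 131.7 to 614.1 with drug, and the Kupffer cell sum is 7766 to 8357 and 3313 to 5596. The cholangiocyte sum is 244.8 to 315.6 with vehicle and 327.1 to 423 with drug. The T cell sum is 202.8 to 322.6 with vehicle and 188.8 to 198.8 with drug, with blanks counted as 0. The plasma cell sum is 285.3 to 366.7 and 244.8 to 267.1. The adipose sum, most of it from Cfd, is 218.4 to 230.1 and 117.8 to 137.6. Hepatocyte, endothelial, stellate cell and the remaining sums overlap between the groups.

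Cfd, encoding complement factor D (adipsin), the serine protease that starts the alternative complement pathway, was among the genes that fell. It read 7.60, 7.72 and 7.66 with vehicle and 6.62, 6.38 and 6.29 with drug, and fell by 1.23 (SE 0.11, 95% interval -1.48 to -0.98, limma adjusted p = 0.00256), a 2.34-fold lower level with tight replicates in both groups. Cfd is best known from fat cells and is also made by macrophages, and the part of either cell type in its fall was not tested. The fat cell markers measured beside it were near the floor: Adipoq (adiponectin) read 4.44, 4.30 and 2.94 against 3.05, 4.60 and 4.25, Plin1 (perilipin) 3.09 to 3.25 with 1 blank against 3.44, 3.78 and 5.34, and Lep (leptin) was blank on 5 of the 6 arrays.

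The genes next in p on the lower side were Dtx1, Calml4, Cst3 and Fyb1, each with a limma adjusted p of 0.11. Dtx1, a ubiquitin ligase of the Notch pathway, read 8.65, 8.73 and 8.63 against 7.43, 7.13 and 7.49, a difference of -1.32. Cst3, the secreted protease inhibitor cystatin C, read 10.48, 10.49 and 10.46 against 9.58, 9.69 and 9.69, a difference of -0.82. Both had tight replicates and no overlap. Fyb1, an adaptor protein of T cells, myeloid cells and platelets, read 6.59, 7.16 and 7.01 against 4.92, 5.81 and 4.59, but the mean of its probe sets gave 0.24 where the brighter one gave -1.81, since the dimmer one had a single value with drug. Without wood the differences were -0.47 for Dtx1, -0.54 for Cst3 and -1.78 for Fyb1. Calml4 had a difference of -0.76 with wood and 0.11 without. None of these differences between housings passed the test.

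Interferon-induced genes had mostly negative differences. Of 22 tested, 0 were called by limma, 21 were negative, and 10 of these had an unadjusted p under 0.05, against 4.54% over all genes. In 12 of 22 (54.5%, against 9.64% over all genes) the drug values lay lower without overlap, and the median was -0.56. Irf7, a transcription factor that amplifies the interferon response, read 7.96, 8.81 and 9.06 with vehicle and 7.33, 7.63 and 6.96 with drug (limma adjusted p = 0.273). Mx2, an antiviral GTPase, read 7.14, 7.69 and 8.13 against 6.55, 6.63 and 6.03 (limma adjusted p = 0.221), and Gbp2, a guanylate-binding protein, read 7.29, 7.42 and 8.02 against 6.51, 6.74 and 6.09 (limma adjusted p = 0.216). In Irf7 and Mx2 the lowest vehicle value was that of rat 3001. Isg15, a ubiquitin-like interferon product chosen here after its values were seen, read 5.61, 6.02 and 6.33 with vehicle and was blank in all 3 drug livers, so it was not tested.

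Among cytokine and chemokine genes, 0 of 19 tested were called and 14 were negative, with a median of -0.47. Il1b, encoding interleukin-1 beta, read 7.09, 6.80 and 6.85 against 5.58, 5.87 and 5.34, a difference of -1.32 (SE 0.25, limma adjusted p = 0.184). Cxcl2, a neutrophil chemokine, read 4.88, 5.09 and 5.03 against 4.52, 4.13 and 3.27, and Il6 4.79, 4.98 and 4.62 against 4.18, 4.23 and 4.40. These 3 separated the groups at modest or low intensities. Ccl20, another chemokine, was blank in 2 vehicle rats and 1 drug rat, so its difference of 3.51 compares 1 value with 2.

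On the higher side no gene passed, and the 10 genes with the smallest p are given as values. Mturn (maturin) read 6.52, 6.59 and 6.42 with vehicle and 7.13, 7.11 and 7.10 with drug, a difference of 0.60 (SE 0.09, limma adjusted p = 0.11). Dab2, an endocytic adaptor, read 7.31, 7.47 and 7.54 against 8.03, 8.04 and 8.08, a difference of 0.61 (SE 0.10, limma adjusted p = 0.11). The 3 drug values of each lay within 0.06 of one another, above every vehicle value. Il7, a growth factor for lymphocyte precursors, read 6.04, 6.23 and 6.16 against 7.10, 7.52 and 6.93, a difference of 1.04 (SE 0.17, limma adjusted p = 0.122). A dimmer second probe set of Il7 was blank in all 3 vehicle rats, so that the mean of both gave -0.02. The second probe set of Mturn, of similar brightness, gave a difference of 0.20.

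Serpina7, the plasma carrier of thyroid hormone, read 7.07, 7.64 and 6.24 with vehicle and 8.68, 9.46 and 9.11 with drug, a difference of 2.10 (SE 0.35, limma adjusted p = 0.122). Fgd4, an activator of the GTPase Cdc42, read 4.37, 4.67 and 4.79 against 5.96, 5.88 and 5.60, and Tom1l1, an adaptor in membrane traffic, 6.89, 6.68 and 6.68 against 7.55, 7.44 and 7.31. Sdr39u1, a member of the short-chain dehydrogenase family, had a difference of 1.98, Rftn2, of the raftlin family, one of 1.85 with 1 vehicle blank, and Znrf1, a ubiquitin ligase, one of 0.56. Apart from Rftn2 these all separated the groups, and their limma adjusted p values were 0.122 to 0.213. Other probe sets of Znrf1 gave 0.61 and -0.17. Without wood, Serpina7 (1.14) and Znrf1 (0.11) again had positive differences, while Sdr39u1 (-0.95), Fgd4 (-0.12), Tom1l1 (-0.76) and Rftn2 (-0.40) had negative ones. None of these differences between housings passed the test.

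**Figure D4:**
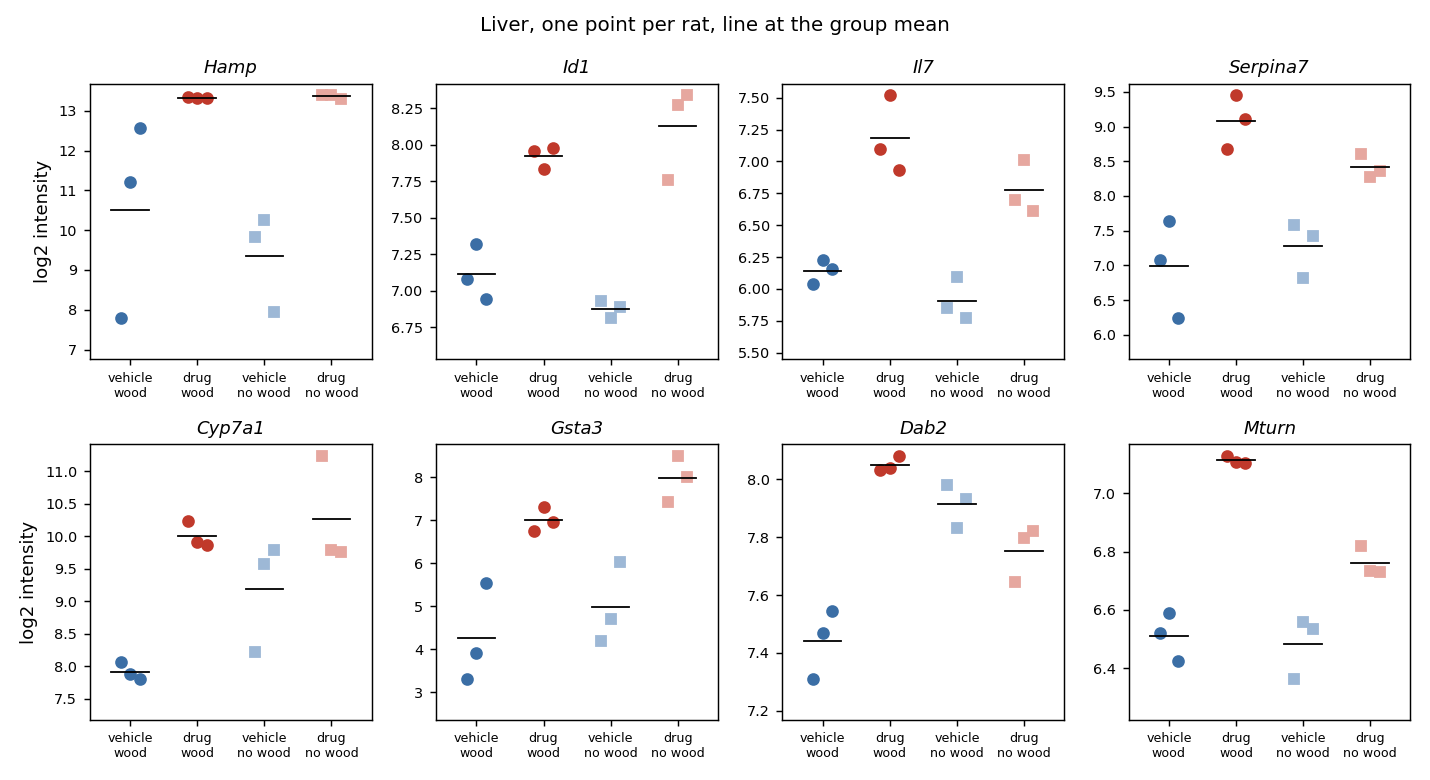
Log2 intensity in liver of 8 genes with higher values in drug rats, with wood (circles) and without wood (squares), 3 rats per group, lines at the means. Hamp reads 13.32 to 13.34 in the drug rats with wood and 7.79 to 12.57 in the vehicle rats, and Dab2 is higher with drug only in the rats with wood, a difference between housings that did not pass the test.

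The hormone hepcidin, which blocks iron export and is driven by bone morphogenetic protein (BMP) signalling, inflammation and iron stores and held down by active red cell formation, is encoded by Hamp. Hamp read 7.79, 11.20 and 12.57 in the vehicle livers and 13.34, 13.32 and 13.32 in the drug livers. The vehicle rats differed by several log2 units, while the drug rats were nearly equal and close to the top of the scale, so the difference of 2.81 (SE 1.03, limma adjusted p = 0.497) did not pass. Id1, a BMP target, read 7.08, 7.32 and 6.94 against 7.96, 7.84 and 7.98, a difference of 0.81 (SE 0.16, limma adjusted p = 0.192). Id2, of the same family, read 10.02, 10.06 and 10.58 against 10.66, 11.54 and 10.90, and Slc39a14, a zinc and iron importer, 10.71, 10.75 and 11.09 against 11.38, 11.34 and 11.11. Of 21 iron and BMP genes tested, 0 were called by limma. A positive difference with an unadjusted p under 0.05 was found in 6, against 3.58% over all genes. In 7 (33.3%, against 7.51% over all genes) the drug values lay higher without overlap, and the median was 0.17. The ligand Bmp6 (-0.02), the receptor Tfr2 (0.12) and the coreceptor Hjv (-0.06) overlapped between the groups.

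Acute phase and complement genes gave a similar count, 0 of 28 called. In 10 (35.7%, against 7.51% over all genes) the drug values lay higher without overlap, though the median was only 0.08. C5, a complement component, read 11.56, 11.72 and 11.67 against 12.07, 12.11 and 11.97, a difference of 0.40 (limma adjusted p = 0.269). Lbp, the lipopolysaccharide-binding protein, read 10.91, 11.29 and 10.80 against 11.90, 11.92 and 11.67, and A2m, alpha-2-macroglobulin, the classic rat acute phase protein, 5.70, 6.92 and 6.35 against 7.09, 8.40 and 8.56. The abundant plasma proteins differed little: Fgb, a fibrinogen chain, by 0.20 and Hp, haptoglobin, by -0.12, at levels above 13, near the top of the scale.

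No metabolic gene of hepatocytes passed the test. Cyp7a1, the rate-limiting enzyme of bile acid synthesis, read 8.07, 7.88 and 7.80 with vehicle and 10.24, 9.91 and 9.87 with drug, a difference of 2.09 (SE 0.46, limma adjusted p = 0.221) with a clear gap between the groups. The other bile acid genes did not follow it, with 0 of 20 called and a median of 0.12. Gsta3, a glutathione transferase of the kind that conjugates electrophiles, read 3.30, 3.91 and 5.54 against 6.75, 7.32 and 6.96, a difference of 2.76 (SE 0.61, limma adjusted p = 0.221). Gstt1, another glutathione transferase, read 7.52, 7.34 and 7.77 against 8.60, 8.004 and 8.31, whereas Gclc, the rate-limiting enzyme of glutathione synthesis, read 10.10, 10.13 and 10.28 against 9.59, 9.73 and 9.89. Akr1b1, the aldehyde and mustard detoxification gene with the smallest p, read 6.34, 6.52 and 6.43 against 2.91, a blank and 4.54 (-2.71, limma adjusted p = 0.192). Over 23 aldehyde and mustard detoxification genes, 0 were called and the median was 0.06, and over 21 NRF2 targets 0 were called and the median was 0.01. In members with all 6 values, 4 of 22 detoxification genes (18.2%) and 5 of 19 NRF2 targets (26.3%) lay lower without overlap, against 9.64% over all genes. Higher without overlap lay 2 of each list (9.09% and 10.5%, against 7.51% over all genes).

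Of 33 cytochrome P450 and related genes tested, 0 were called by limma and the median was -0.09. Cyp4f6, a fatty acid hydroxylase, read 9.83, 9.74 and 9.80 against 8.93, 8.43 and 8.89, a difference of -1.04 (SE 0.18, limma adjusted p = 0.132), and Cyp4f4 11.37, 11.68 and 11.67 against 11.26, 11.20 and 11.22. The male-specific Cyp2c11, which helps to activate cyclophosphamide, overlapped at 12.94, 12.99 and 12.70 against 12.80, 12.37 and 12.96. In fat synthesis, 14 of 18 genes were negative and 0 called, with a median of -0.26. Scd, the stearoyl-CoA desaturase, read 8.64, 7.44 and 9.41 against 5.46, 7.38 and 6.51, and Acly, which makes cytosolic acetyl-CoA, 9.25, 9.24 and 9.21 against 8.89, 8.64 and 8.87.

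Vehicle rats differed among themselves in some fasting genes. Fgf21, a hormone of fasting, read 11.04 in rat 3001 and 8.70 and 7.49 in the other vehicle rats, against 6.96, 6.43 and 6.74 with drug. Acot1, an acyl-CoA thioesterase induced with fat oxidation, read 8.53, 5.57 and 4.82 against 3.90, 3.52 and 3.66, with the same rat highest. In Hamp, rat 3001 was the lowest of the vehicle rats. Angptl4, an inhibitor of lipoprotein lipase, overlapped at 11.16, 10.44 and 11.18 against 8.88, 10.27 and 10.53. Over 22 fatty acid oxidation and fasting genes 0 were called, 17 were negative, 6 (27.3%, against 9.64% over all genes) lay lower without overlap, and the median was -0.20; the sources used here give no food intake, and its part in these values was not tested.

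Genes of the DNA damage response gave no calls. Of 21 p53 targets tested, 0 were called by limma, 15 were positive, 5 (23.8%, against 7.51% over all genes) separated the groups with higher drug values, and the median was 0.09. Gdf15, a stress-induced cytokine, was dim, at 2.57, 3.38 and 2.53 with vehicle against 3.41, 4.70 and 4.10 with drug, without overlap (1.25, limma adjusted p = 0.5). Gadd45a, a growth arrest gene, read 9.30, 8.27 and 7.80 against 7.97, 7.15 and 7.29, with overlap (-0.99, limma adjusted p = 0.547). These are the members with the largest difference on either side. Ccng1, cyclin G1, read 8.24, 8.02 and 8.18 against 8.75, 8.36 and 9.14 (limma adjusted p = 0.517), Cdkn1a, the cell cycle inhibitor p21, overlapped at 8.88, 6.31 and 8.60 against 8.53, 7.11 and 8.96, and Mdm2, the ubiquitin ligase for p53, had a difference of -0.02. Mitosis and replication genes were positive in 25 of 31 tested with a median of 0.35 and 0 called. Nusap1, a spindle protein, read 5.83, 5.70 and 5.83 against 7.36, 6.90 and 6.48 (limma adjusted p = 0.545), and Ccnb1, cyclin B1, lay on the other side at 6.80, 6.82 and 6.48 against 6.19, 5.75 and 5.88. Most of this list was dim, with several genes blank on some arrays.

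Immediate early genes, which are induced within minutes of a stimulus, were negative in 18 of 19 tested, with a median of -0.73 and 0 called. Fos read 7.58, 6.71 and 7.69 against 4.47, 4.77 and 6.03 (limma adjusted p = 0.481), and Ier2 8.37, 8.30 and 7.94 against 7.33, 7.32 and 7.30 (limma adjusted p = 0.243). Both separated the groups. Cish, a feedback inhibitor induced by growth hormone, read 9.33, 8.92 and 7.81 against 7.56, 6.72 and 5.77, a difference of -2.001 (limma adjusted p = 0.243), and Cry1, a clock repressor, 8.56, 7.89 and 7.77 against 6.99, 7.27 and 7.27.

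Hepatocyte, endothelial and stellate cell lists gave no calls and medians near 0. These medians were -0.05 over 14 hepatocyte identity genes, -0.08 over 14 sinusoidal endothelial genes and -0.02 over 23 stellate cell and matrix genes. The 7 cholangiocyte (bile duct cell) genes tested also gave no calls, with 6 positive and a median of 0.26. Of these 7, 2 (28.6%, against 7.51% over all genes) lay higher without overlap. Fcgr2b, an antibody receptor of sinusoidal endothelium and B cells, read 10.01, 10.20 and 10.09 against 10.10, 10.37 and 10.34, and Lyve1, a hyaluronan receptor of the same endothelium, 9.87, 10.27 and 10.27 against 10.33, 10.42 and 10.17. Both overlapped between the groups. Of the endothelial list, 2 of 13 members with all values (15.4%, against 9.64% over all genes) lay lower without overlap. Pecam1, the endothelial adhesion molecule CD31, read 6.97, 7.17 and 7.07 against 6.85, 6.74 and 6.74 (-0.30, limma adjusted p = 0.438), and Stab1, a scavenger receptor, 7.92, 7.90 and 7.83 against 7.29, 7.70 and 7.63 (-0.34, limma adjusted p = 0.438).

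Some genes had a blank where the other group had values, which leaves no test or a weak one. Rasd1, a small GTPase of the Ras family, was blank in 2 vehicle rats and 3.66 in the other, and read 7.14, 7.21 and 6.81 with drug. Pcnt, encoding the centrosome protein pericentrin, was blank in the same 2 rats and 5.07 in the other, against 5.90, 6.57 and 6.58. Kif1c, a kinesin motor, read 6.61, 6.86 and 7.15 with vehicle, and 5.58 with blanks in 2 rats with drug. Ezr, Cacna1i and Rassf1 had 2 drug blanks each, and Rap1al, Cracr2b and Ptcd2 2 vehicle blanks each, and except in Rassf1 the remaining value lay within or near the range of the other group. A blank is a missing value and was not read as absence.

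Whether the drug effect differed with housing was tested as a difference of differences, with wood minus without wood. Of 12683 genes, limma called 0, and 650 (5.12%) had an unadjusted p under 0.05. Leaving out rat 1003, 1005, 2003, 4001 or 4005 gave 1 call each, Slc25a38, Pds5b, Mllt3, Calhm2 and Usb1 in turn. Without wood 19 genes (0.15%) were called, 7 higher (0.0552%) and 12 lower (0.0946%), and they include the same 6 genes: 6 of the 6 called with wood and 6 of the 19 called without. The difference without wood was -3.33 for Alas2, -2.60 for Cd74, -2.17 for RT1-Da, -1.48 for Irf8 and -1.25 for Cfd. The difference between housings had a 95% interval of -0.57 to 0.78 for both Alas2 and Cd74, -0.64 to 0.60 for RT1-Da, -0.65 to 0.58 for Irf8 and -0.33 to 0.38 for Cfd. For Hbb it was -1.48 to -0.23 (unadjusted p = 0.016, limma adjusted p = 0.95), from 1 drug value in either housing.

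The genes with the smallest p in this comparison are given as values. Tom1l1 read 7.41, 7.25 and 7.54 with vehicle and 6.66, 6.41 and 6.85 with drug in the rats without wood, the opposite order to that with wood, and the difference between housings was 1.44 (limma adjusted p = 0.128). Zdhhc23, a palmitoyltransferase, read 8.36, 8.20 and 7.63 against 7.54, 7.68 and 8.08 with wood, and 7.96, 8.18 and 8.50 against 6.09, 6.18 and 5.66 without (1.94, limma adjusted p = 0.32). Epx, eosinophil peroxidase, and Trpc1, a cation channel, had the smallest limma adjusted p, 0.0948 each, but both were dim with blanks: in the drug rats without wood Epx was blank in 2 and -4.03 in the other. Ccl17, a chemokine, and C2cd3, a centriole protein, likewise rested on groups with 2 blanks. Cish showed no drug difference without wood, where both groups were low (6.37, 6.15 and 6.13 against 6.47, 5.85 and 6.08), and the difference between housings of -1.92 had a limma adjusted p of 0.95. The immediate early list had a median of -0.06 without wood, a contrast with the -0.73 above that was not tested as a list.

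**Figure D5:**
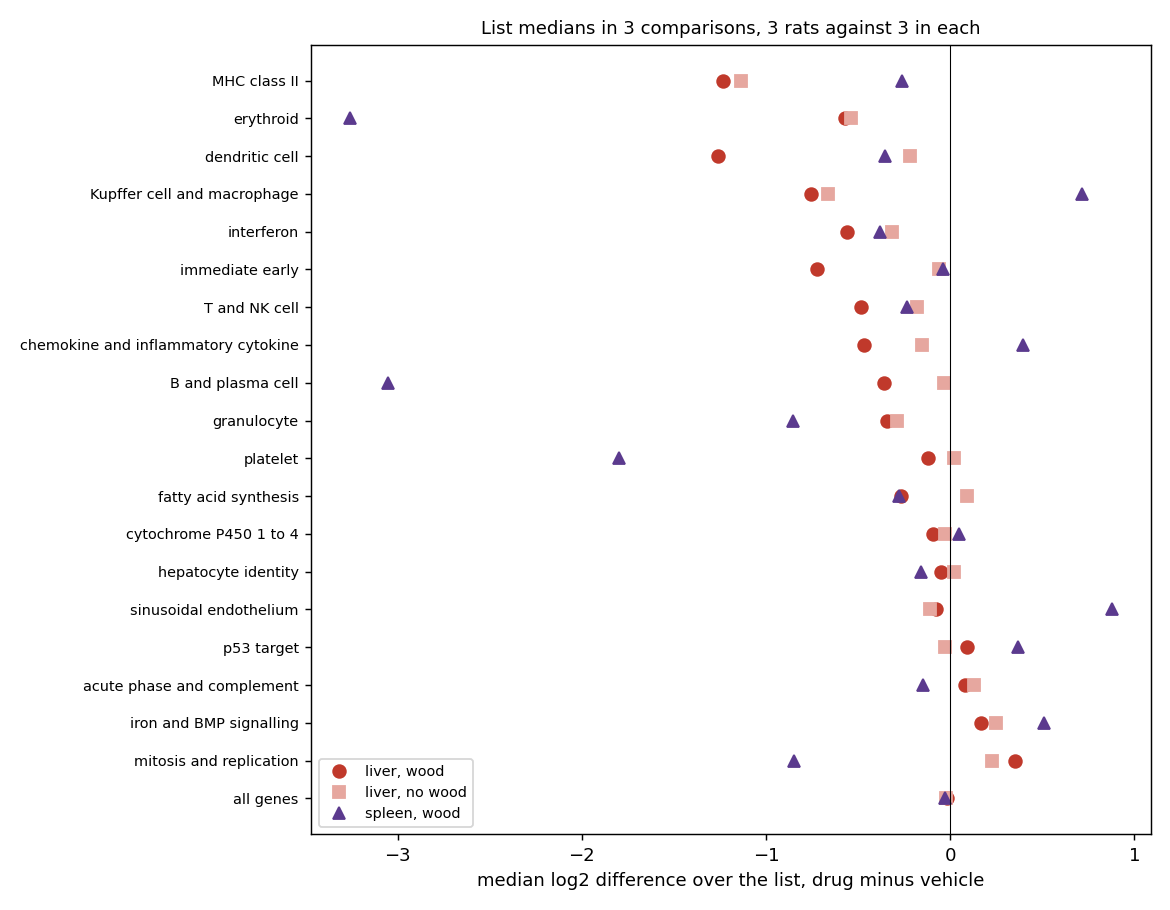
Median log2 difference, drug minus vehicle, over the tested members of each list in liver with wood, liver without wood and spleen with wood, 3 rats against 3 in each. The class II medians are -1.23, -1.14 and -0.26, and the macrophage medians -0.75, -0.66 and 0.71.

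The spleens of the same rats responded on a larger scale, with 3910 of 12714 genes (30.8%) called, 2090 (16.4%) higher and 1820 (14.3%) lower. The test of liver effect minus spleen effect called 2485 genes (19.5%), 1029 (8.09%) above 0 and 1456 (11.5%) below; without rat 3001 it called 1450 and without rat 3003 1397. All 6 genes that fell in liver with wood were among them. Of 8 class II genes, 3 differed between the organs past the threshold, each with liver below spleen. Cd74 read 13.48, 13.47 and 13.42 against 13.19, 13.21 and 13.18 in spleen, a spleen difference of -0.27, and liver minus spleen was -2.23 (SE 0.18, limma adjusted p = 0.000338). The same comparison gave -1.94 for RT1-Da (limma adjusted p = 0.000926), -1.36 for RT1-Ba (limma adjusted p = 0.0163) and, outside the class II list, -1.22 for Irf8 (limma adjusted p = 0.00695). RT1-DMb gave -0.59 (limma adjusted p = 0.0774), which did not pass. Splenic Cd74 lay within 1 log2 unit of the brightest value of the liver arrays, and how far the top of the scale limits its difference was not tested.

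Alas2 read 11.85, 11.81 and 12.36 against 6.50, 5.71 and 5.42 in spleen, a fall of 6.13 there, and liver minus spleen was 2.90 (limma adjusted p = 0.00215). The vehicle level in liver, 8.03, was far below that in spleen, and the drug livers read among the dim genes, so how far low signal limits the liver fall and its fold was not tested. Over 18 erythroid genes the spleen median was -3.26, against -0.57 in liver. In spleen 13 of them were called lower, against 14.3% over all genes. Hbb fell by 3.61 in spleen, where all 6 values were present, and liver minus spleen was -8.99 (limma adjusted p = 0.00303), again resting on its single liver value with drug.

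Many macrophage genes differed between the organs, though none passed in liver alone. Csf1r rose by 0.91 in spleen (limma adjusted p = 0.00217) where liver gave -0.96, and liver minus spleen was -1.87 (limma adjusted p = 0.00112). C1qc rose by 0.57 in spleen (limma adjusted p = 0.0118), and liver minus spleen was -1.42 for C1qc, -1.41 for C1qa and -2.23 for C1qb (limma adjusted p = 0.00176, 0.00575 and 0.0146). Of 18 listed macrophage genes, 10 rose and 2 fell in spleen, and in 12 the organs differed past the threshold, each with liver below spleen. Over all genes, 16.4% rose and 14.3% fell in spleen, and 11.5% had liver below spleen past the threshold. Clec4f was not among them. It was dim in spleen, at 5.10, 5.32 and 5.32 with vehicle against 4.70, 4.63 and 4.62 with drug. Its fall there of 0.60 (limma adjusted p = 0.011) lay at low signal, and the -0.87 in liver started from a vehicle mean of 11.12. Cfd rose in spleen, by 0.91 (limma adjusted p = 0.00315), so liver minus spleen was -2.14 (limma adjusted p = 0.00091).

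Among the genes with the smallest p on the positive side, Fcgr2b fell by 3.85 in spleen and gave 4.02 for liver minus spleen (limma adjusted p = 6.7e-05), Tmcc2 gave 3.76, Tspan33 4.54, Tent5c 3.06 and Fcrla, a B cell protein related to antibody receptors, 3.02. In these 5 the liver difference was between -0.61 and 0.17. On the negative side, Slc22a18, a membrane transporter, gave -1.69, Tst, the mitochondrial sulfur transferase rhodanese, -1.65, Tmem205, a membrane protein, -1.70, and Mdfic, an inhibitor of MyoD family factors, -1.86. These 4 rose in spleen by 1.42 to 1.67, and in liver only Mdfic separated the groups, at 9.26, 8.97 and 8.93 against 8.54, 8.55 and 8.74. Cyp7a1, at 5.75 to 6.67 in the 6 spleens, gave 2.54 for liver minus spleen (limma adjusted p = 0.000567).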

How the data were processed

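The authors deposited one table of normalised values for 24 Affymetrix rat expression arrays, made from 5 µg of total RNA per organ per the labels' protocols. These deposited values are log10 intensities, a base inferred from their range; the sources used here give neither the summary of probes nor the scaling, and no counts or detection calls were used. Values were multiplied to the log2 scale with no further scaling, and blank cells, 77831 over all arrays, were left missing. Of 30980 probe sets, 20792 name 1 gene, 436 several and 9752 none in the platform annotation; symbols were updated through Entrez identifiers (20724 probe sets). Each of 14201 genes was read from 1 probe set, the one whose log2(intensity + 16) averaged highest across 24 arrays, and a gene was tested where every group of the fit had at least 1 value.

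R 4.3.3 and limma 3.58.1 (lmFit, contrasts.fit, eBayes) were used: 4 group means over the 12 liver arrays for the drug and housing comparisons, and 4 over the 12 arrays of rats with wood for the tissue comparison, with Benjamini-Hochberg adjustment over all genes and a threshold of 0.05. A rat's liver and spleen share its animal number, so the tissue comparison is paired by animal; the deviations of a liver from its group correlated with those of its own spleen at 0.0496 to 0.0905 and with those of other spleens at -0.000131 or less, and a fit with the rat as a replicate block (correlation 0.0819) called 2795 genes. The fits were tested on simulated data. The precision is limited by having 3 arrays a group.

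Named genes were drawn from up to 15 per direction past the threshold, filled to 10 by p as values, and up to 4 members of each of 36 lists by p. Cell type markers, the leading genes of the other comparisons (3 per direction as values for housing, 5 for tissue) and genes blank in most of 1 group were added. Not every gene so drawn is described above. Tnfrsf17, Srxn1, Ugdh and the cholesterol synthesis genes are among those left out. Mrc1, Cd163, Cd14, Bmp6, Tfr2, Hjv, Hp, Cdkn1a, Mdm2, Gata1, RT1-Bb, RT1-Db1, RT1-DMa, Ciita and Isg15 are list members outside this rule, chosen after their values were seen. The members, lists and tests were chosen with earlier results of these data known.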

Additional observations from a re-analysis of the deposited data

Results flagged for a closer look

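The drug effect differed between liver and spleen past the limma threshold in the 21 genes listed here. All 21 also passed with the rat as a replicate block. RT1-DMb and Clec4f were compared in the text too and did not pass (limma adjusted p = 0.0774 and 0.387), and they are not counted among the 21. Liver minus spleen was below 0 in Hbb (-8.99), Cd74 (-2.23), C1qb (-2.23), Cfd (-2.14), RT1-Da (-1.94), Csf1r (-1.87), Mdfic (-1.86), Tmem205 (-1.70), Slc22a18 (-1.69), Tst (-1.65), C1qc (-1.42), C1qa (-1.41), RT1-Ba (-1.36) and Irf8 (-1.22). It was above 0 in Alas2 (2.90), Cyp7a1 (2.54), Tspan33 (4.54), Fcgr2b (4.02), Tmcc2 (3.76), Tent5c (3.06) and Fcrla (3.02). The Hbb value rests on 1 drug liver value near the floor and is no measured size, the Cd74 value is set against spleen values near the top of the scale, and Alas2 was dim in the drug livers. These genes were picked for their liver effect or for this difference, so their number is a description. No named gene had a housing difference past the threshold, and groups of 3 rats are too small for a search for single outlying arrays.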

How the results depend on the processing

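The count of 6 liver genes was 10 and 17 with offsets of 16 and 64 and blanks at 0, 17 over genes at or above the median level, 16 over every probe set, 14 with trend and robust eBayes, 13 with array weights, and 1 with only the 6 arrays of rats with wood; leaving out 1 rat gave 6 to 8, and requiring 2 values per group gave 5. The list members called were 6, 1 with only those 6 arrays, and 4 to 6 with 1 rat left out. Alas2, Cd74, RT1-Da and Cfd passed limma in all 6 refits that left out 1 rat with wood; with only the 6 arrays their limma adjusted p values were 0.0673, 0.063, 0.102 and 0.143. Without rat 4001 Hbb could not be tested. The housing count was 0, and 0 to 1 with 1 rat left out. The tissue count of 2485 was 1397 to 1857 with 1 rat left out and 2795 with the rat as a replicate block, which ended no call of a gene named for that comparison. Of the single genes, Fyb1 reversed to 0.24 and Il7 to -0.0155 with the mean of all probe sets, and Cyp2c11 ranged from -0.30 without rat 4005 to 0.0024 without rat 4003. Over single genes and settings, 1395 values kept their direction and side of the threshold, 25 passed only under the alternative and 10 no longer passed. With 3 rats per group, low signal and blanks limit the dim genes, and values above 13 lie near the top of the scale.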
